A study of Mus musculus with 16 samples.

Results

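The liver X receptor (LXR) targets and sterol efflux genes described here are 10 genes: the exporters Abca1, Abcg1, Abcg5 and Abcg8, the lipoprotein proteins Pltp and Lcat, the enzymes and transfer proteins Lpcat3, Mttp and Soat2, and the receptor Nr1h2. They were taken by name and not by a rule on their measured values, although earlier results of these data were known when they were chosen. Their probes were found on the array through the RefSeq accession that each probe carries. All 10 were among the 20659 named genes of the array, each with 1 probe, and all 10 were among the 15053 genes tested. Messenger RNA was measured in primary hepatocytes of male C57Bl/J mice in 3 states: treated with SQ1, treated with pravastatin, or left untreated as control. The labels give the doses as 100 µM SQ1 and 30 µM pravastatin, added 48 h after plating to cells in Williams Medium E and kept on for 48 h. The dose of SQ1 is printed as labelled, and its unit is uncertain because squalestatins act at nanomolar doses. Each of 16 Agilent 2-colour arrays carried treated RNA in 1 dye and control RNA in the other, with 8 arrays per drug and 4 in each dye orientation. The series calls the cultures biological replicates, and the ages of the mice are not given in the sources used here. The deposited files number the control cultures 1 to 8, and each number appears on 1 array of each drug, so both drug comparisons share their controls and the 16 control channels come from 8 control cultures.

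LXR alpha and LXR beta are nuclear receptors that bind oxysterols and desmosterol and act on DNA as partners of the retinoid X receptor. In liver their known targets export sterol from the cell: Abca1 loads cholesterol and phospholipid onto apolipoprotein A-I, Abcg1 onto mature high-density lipoprotein, and the obligate pair Abcg5 and Abcg8 moves sterols into bile. Other targets remodel lipoproteins or membrane phospholipid. SQ1 (squalestatin 1) inhibits squalene synthase, the first enzyme committed to sterols. Pravastatin is a statin, which blocks the same pathway further upstream, where it also feeds isoprenoid synthesis.

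All members but Abcg8 were well above background in both channels of all 16 arrays, and no member was saturated. Over all tested genes, ratios of arrays of the same drug correlated with each other at 0.21 to 0.87 for SQ1 and at 0.79 to 0.97 for pravastatin, a description across genes that are not independent. The labelled cell type was checked with 12 hepatocyte markers, and albumin (Alb) was well above background in both channels of all 16 arrays. So were defining markers of other liver cells: Clec4f of Kupffer cells, Col1a1 of stellate cells, Stab2 of sinusoidal endothelium and Krt19 of bile ducts. Markers of all these cell types could thus be measured in the cultures, and no defining marker was absent.

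Pravastatin lowered most of the set and SQ1 split it. With SQ1, 3 members were higher than in control (Pltp, Lpcat3, Mttp), 4 were lower (Abca1, Abcg1, Soat2, Nr1h2) and 3 did not pass the test, against a background of 32.3% of all tested genes called with SQ1 (15.7% higher and 16.5% lower). With pravastatin, 8 members were lower, Nr1h2 was higher and Pltp did not pass the test, against 66.7% of all tested genes called (30.9% higher and 35.8% lower). The median log2 ratio of treated over control over the members was -0.01 with SQ1 and -0.48 with pravastatin, where the median over all tested genes was -0.00 with SQ1 and -0.01 with pravastatin. Normalization within each array (loess) centres ratios near 0, so the medians over all genes were set by the processing. With median centring in its place, the members' medians were 0.04 with SQ1 and -0.37 with pravastatin, and those of all tested genes 0.07 and 0.04. A gene was called when its adjusted p was under 0.05, with limma's moderated test and Benjamini-Hochberg adjustment over all 15053 genes. Ratios are given on the log2 scale with the dye effect of each gene removed, and errors are standard errors (SE) of the fit over 16 arrays.

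**Figure D1:**
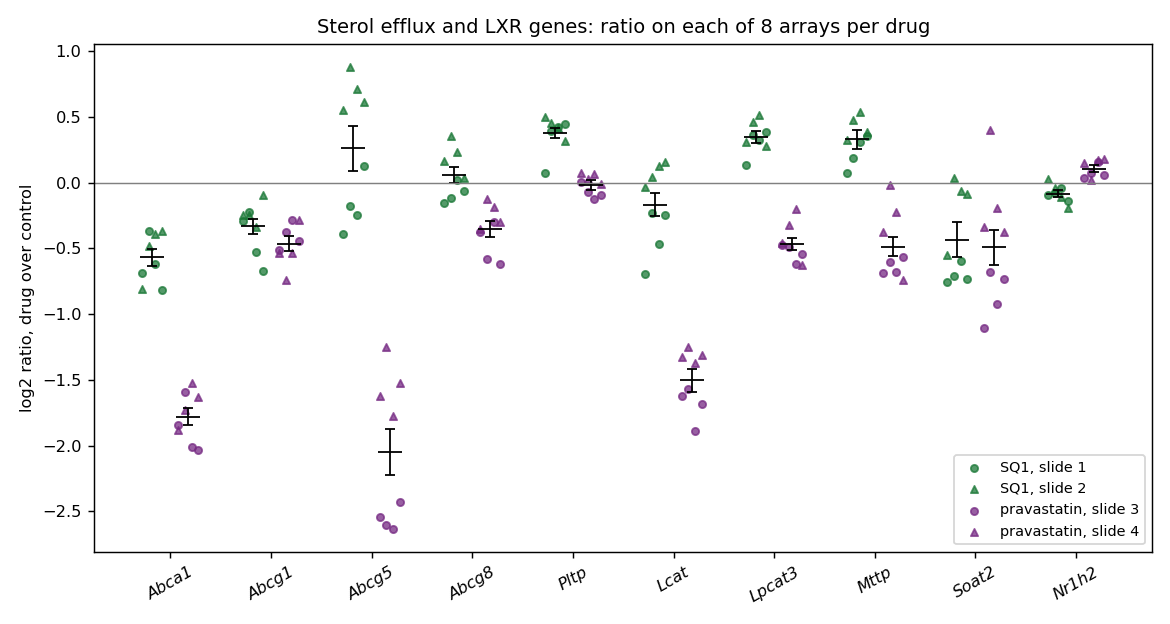
Log2 ratio of treated over control RNA for the 10 members on each array, with SQ1 (8 arrays) left of pravastatin (8 arrays); circles are arrays of slides 1 and 3, triangles arrays of slides 2 and 4, and bars give the fitted mean and its SE. Pravastatin ratios of Abca1, Abcg5 and Lcat lie below -1 on all 8 arrays, while SQ1 ratios of Abcg5 and Lcat lie on both sides of 0.

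Abca1 was lower with both drugs. Its ratio on the 8 SQ1 arrays ran from -0.82 to -0.37 with a median of -0.55. On the 8 pravastatin arrays it ran from -2.03 to -1.53 with a median of -1.79. All 16 ratios were below 0, and the ranges of the 2 drugs did not overlap. The fitted log2 change was -0.57 ± 0.07 with SQ1 (1.48-fold lower, adjusted p = 7.79e-06) and -1.78 ± 0.07 with pravastatin (3.44-fold lower, adjusted p = 2.07e-12). Among all tested genes, ordered from the lowest ratio, Abca1 was number 197 with SQ1 and number 191 with pravastatin. Its log2 intensity averaged 14.41 ± 0.12 in SQ1-treated cells, 13.26 ± 0.09 in pravastatin-treated cells (SD, n = 8 each) and 15.01 ± 0.25 in controls (SD, n = 16 channels). The pravastatin levels, 13.06 to 13.36, did not overlap the controls, which ran from 14.59 to 15.32, whereas the highest SQ1 level, 14.64, was above the lowest control.

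The Abca1 promoter is shown because the gene is the best known LXR target among the exporters. The 250 bases before its start (RefSeq, GRCm38.p6, chr4:53159896-53160145, minus strand, read 5′ to 3′) carry in capitals a CACGTG E-box 147 bases before the start and, 67 bases before it, TGACCGGTAGTAACCC, which read on the other strand lies 3 mismatches from the LXR element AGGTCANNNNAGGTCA.

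Abca1: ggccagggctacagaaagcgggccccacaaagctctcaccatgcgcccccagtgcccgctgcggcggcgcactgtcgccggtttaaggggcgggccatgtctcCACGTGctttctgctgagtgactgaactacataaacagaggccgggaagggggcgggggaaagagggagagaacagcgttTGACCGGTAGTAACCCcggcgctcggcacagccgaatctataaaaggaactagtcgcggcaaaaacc

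The LXR element is a direct repeat with 4 bases between its parts, and it was searched on both strands. With at most 2 mismatches it was in 2.57% of all 32851 promoter windows and in 0 of the 9 windows of the members. With 3 mismatches, a limit set after these letters were seen, it was in 18.5% of all windows and in 2 of the 9, those of Abca1 and Lcat. The single repeat AGGTCA was in 14.0% of all windows and in 0 of the 9, and CACGTG was in 6.02% of all windows. The windows covered 8 of the 10 members, with 2 windows for Abcg8 and none used for Abcg1 or Soat2.

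Abcg1 was the other cholesterol exporter that was lower with both drugs, by less than Abca1. SQ1 ratios ran from -0.67 to -0.10, with a median of -0.27, and pravastatin ratios from -0.74 to -0.28, with a median of -0.47. All 16 ratios were below 0, and the ranges of the drugs overlapped. The fitted change was -0.33 ± 0.06 with SQ1 (adjusted p = 0.000372) and -0.46 ± 0.06 with pravastatin (adjusted p = 2.24e-06).

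Abcg5 and Abcg8 are transcribed away from each other from neighbouring starts, and their proteins leave the endoplasmic reticulum only as a pair. The 109 bases between the starts (RefSeq, GRCm38.p6, chr17:84683012-84683120, plus strand) are shown because the genes share them. Capitals mark TTATCT, the reverse complement of the GATA motif AGATAA, a motif chosen after the letters were seen. It was in 9.99% of all windows on either strand, and in 3 of the 9 windows of the members, those of Abcg5, Abcg8 and Lcat. The windows of Abcg5 and Abcg8 overlap here and count the same copies, so these 3 are not separate stretches and cannot be set against that share.

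Abcg5 and Abcg8: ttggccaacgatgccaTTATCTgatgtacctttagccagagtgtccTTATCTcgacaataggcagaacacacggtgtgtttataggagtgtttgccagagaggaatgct

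With pravastatin, Abcg5 was lower on every array. Its ratio ran from -2.63 to -1.25 on the pravastatin arrays, with a median of -2.10, and the fit gave -2.05 ± 0.17 (4.13-fold lower, adjusted p = 2.61e-08). This put Abcg5 at number 133 from the lowest among all tested genes. On the SQ1 arrays its ratio ran from -0.39 to 0.88 with a median of 0.34. It was above 0 on 5 SQ1 arrays and below 0 on 3, and the change of 0.26 ± 0.17 did not pass the test (adjusted p = 0.278, 95% interval -0.11 to 0.63). Its log2 intensity averaged 11.20 ± 0.23 in SQ1-treated cells, 8.89 ± 0.23 in pravastatin-treated cells (SD, n = 8 each) and 10.94 ± 0.34 in controls (SD, n = 16 channels). The highest pravastatin level, 9.15, lay below the lowest control, 10.49.

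Abcg8 was the dimmest member, well above background on 7 of 8 SQ1 arrays, 2 of 8 pravastatin arrays and in 15 of 16 control channels. Its ratio ran from -0.15 to 0.35 with SQ1 (median 0.03) and from -0.62 to -0.13 with pravastatin (median -0.32). The SQ1 ratios lay on both sides of 0 and all 8 pravastatin ratios were below it. The fitted change was 0.06 ± 0.06 with SQ1 (adjusted p = 0.487) and -0.35 ± 0.06 with pravastatin (adjusted p = 6.23e-05). Since 6 of 8 pravastatin arrays did not measure Abcg8 well above background, the size of its fall is uncertain. The background step adds an offset of 50 to every signal, which shrinks ratios of dim probes. With Agilent's own processed ratios, which carry no such offset, the pravastatin change of Abcg8 was -1.93 (adjusted p = 4.52e-06), and the adjusted p over all settings tried ran from 3.72e-06 to 0.00247.

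The proteins that act on secreted lipoprotein parted between the drugs. Pltp, which transfers phospholipid to high-density lipoprotein, had SQ1 ratios of 0.08 to 0.50 with a median of 0.42 and pravastatin ratios of -0.12 to 0.08 with a median of -0.00. It was above 0 on all 8 SQ1 arrays, with replicate 1 far below the other 7, which ran from 0.32 upward. The change was 0.38 ± 0.04 with SQ1 (1.30-fold higher, adjusted p = 2.64e-06) and -0.02 ± 0.04 with pravastatin (adjusted p = 0.746, 95% interval -0.10 to 0.07). Pltp was the second dimmest member, and with Agilent's processed ratios its SQ1 change was 0.69 (adjusted p = 1.32e-06).

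Lcat, which esterifies the cholesterol of circulating lipoprotein, went down with pravastatin. Its ratio on those arrays ran from -1.89 to -1.25 with a median of -1.47, and the fit gave -1.50 ± 0.09 (2.84-fold lower, adjusted p = 3.41e-10). With SQ1 it ran from -0.69 to 0.16 with a median of -0.13, and the change of -0.17 ± 0.09 did not pass the test (adjusted p = 0.161). SQ1 replicate 1 was the lowest, and without it the SQ1 change was -0.09 (adjusted p = 0.450). The log2 intensity of Lcat averaged 11.15 ± 0.28 in SQ1-treated cells, 9.62 ± 0.48 in pravastatin-treated cells (SD, n = 8 each) and 11.22 ± 0.59 in controls (SD, n = 16 channels), the widest control spread of the members. The highest pravastatin level, 10.22, was above the lowest control, 10.10, although every array had the treated channel below its own control.

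Lpcat3 and Mttp moved in opposite directions with the drugs. Lpcat3 places polyunsaturated chains on membrane phospholipids and is a known LXR target. Its ratio ran from 0.13 to 0.51 on the SQ1 arrays (median 0.34) and from -0.62 to -0.20 on the pravastatin arrays (median -0.48), so that the drugs did not overlap. The change was 0.35 ± 0.05 with SQ1 (1.27-fold higher, adjusted p = 3.18e-05) and -0.47 ± 0.05 with pravastatin (1.38-fold lower, adjusted p = 1.58e-07).

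Mttp loads lipid onto apolipoprotein B in the endoplasmic reticulum. Ratios lay between 0.07 and 0.54 with SQ1 (median 0.34) and between -0.74 and -0.02 with pravastatin (median -0.59). All 8 SQ1 ratios were above 0 and all 8 pravastatin ratios below it, with pravastatin replicate 4 the closest to 0. The change was 0.33 ± 0.07 with SQ1 (1.26-fold higher, adjusted p = 0.00197) and -0.49 ± 0.07 with pravastatin (1.40-fold lower, adjusted p = 1.3e-05). With the day of scanning as a random block, the SQ1 change was 0.25 and no longer passed (adjusted p = 0.134, in a range of 0.000154 to 0.134 over all settings). All 8 SQ1 arrays were scanned on the same day, so for any gene that block does not compare SQ1 arrays of different days. Log2 intensities of Lpcat3 averaged 13.44 ± 0.14 with SQ1, 12.53 ± 0.24 with pravastatin and 13.05 ± 0.26 in controls, and those of Mttp 13.75 ± 0.09 with SQ1, 12.92 ± 0.16 with pravastatin and 13.41 ± 0.17 in controls (SD, n = 8 per drug and 16 control channels). The highest pravastatin level of Mttp, 13.15, lay just below its lowest control, 13.17.

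Soat2, which esterifies cholesterol inside the hepatocyte for storage and secretion, was lower with both drugs by similar amounts. Across arrays its ratio ran from -0.76 to 0.03 with SQ1 (median -0.57) and from -1.10 to 0.40 with pravastatin (median -0.53). Replicate 4 was the only one above 0 with either drug. The change was -0.43 ± 0.14 with SQ1 (adjusted p = 0.0222) and -0.49 ± 0.14 with pravastatin (adjusted p = 0.00428). The SQ1 call was lost without SQ1 replicate 1, 2, 3, 5 or 6 (adjusted p 0.0508 to 0.0651), with slide as a random block (0.079) and with median centring in place of loess (0.237), in a range of 0.000175 to 0.297 over all settings. The pravastatin call was lost with median centring (0.0927, in a range of 4.82e-06 to 0.351).

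Nr1h2, LXR beta itself, shifted by the least of the called members. Its ratio ran from -0.19 to 0.03 on the SQ1 arrays (median -0.09) and from 0.02 to 0.18 on the pravastatin arrays (median 0.11). It was below 0 on 7 SQ1 arrays and above 0 on all 8 pravastatin arrays. The change was -0.08 ± 0.03 with SQ1 (adjusted p = 0.0303) and 0.11 ± 0.03 with pravastatin (adjusted p = 0.00304). The SQ1 call did not survive the replicate block (adjusted p = 0.0538), slide as a block (0.206), day of scanning as a block (0.166) or the loss of SQ1 replicate 1, 2, 6, 7 or 8 (0.0537 to 0.0927), and the value was 0.03 with median centring (0.801), in a range of 0.0149 to 0.801 over all settings. With median centring the pravastatin change was 0.24 (adjusted p = 0.0185).

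**Figure D2:**
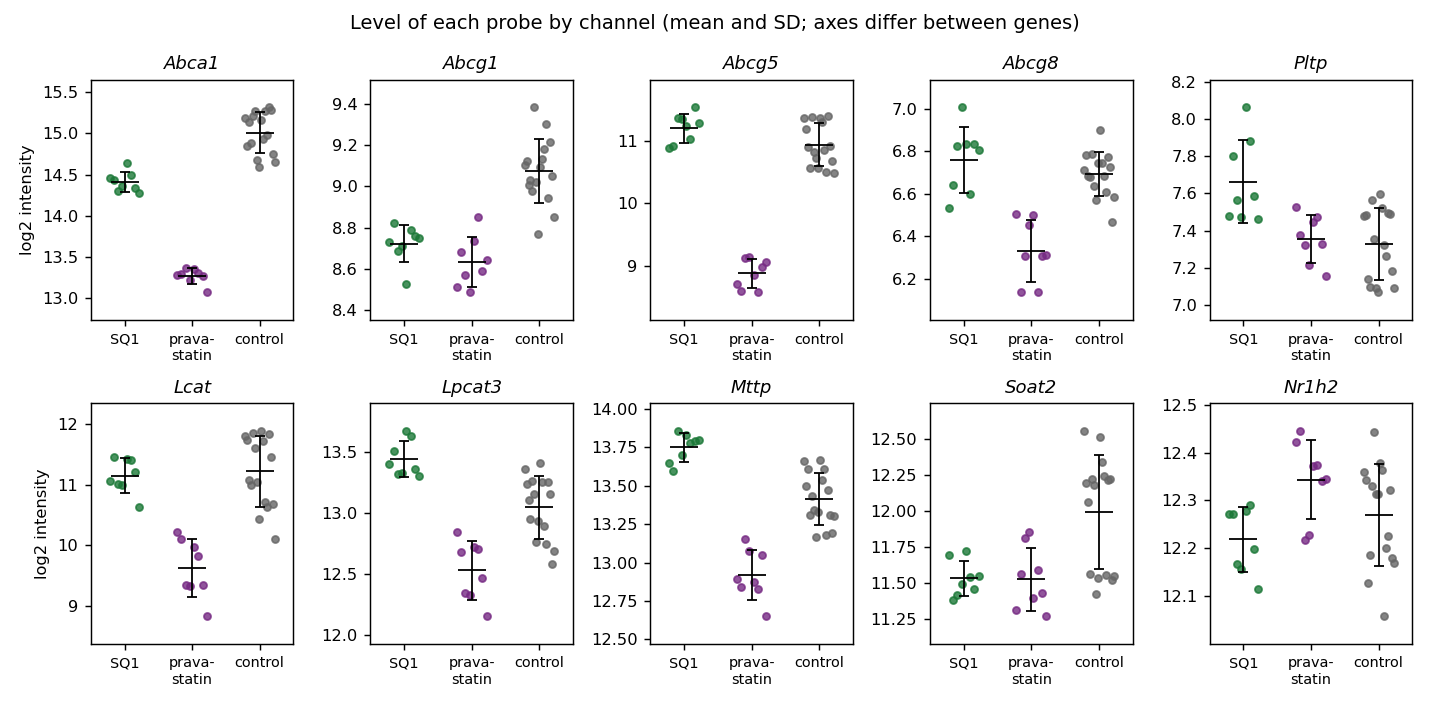
Log2 intensity of the 10 members in SQ1-treated cells (8 channels), pravastatin-treated cells (8 channels) and control cells (16 channels), after normalization within and between arrays; points are channels, and bars give the mean and SD. Pravastatin levels of Abca1, Abcg5 and Mttp lie wholly below the controls, and levels of different genes come from different probes and cannot be set against each other.

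The direct comparison of the drugs asks whether blocking squalene synthase and blocking the pathway further upstream left these genes at different levels. SQ1 minus pravastatin was above 0 past the threshold for 7 members, below it for Nr1h2 and not past it for Abcg1 and Soat2, against a background of 53.1% of all tested genes called (29.3% higher and 23.8% lower). The median difference was 0.61 over the members and 0.01 over all tested genes, a value that normalization within arrays sets near 0. With the offset of 50, Abcg5 differed most, by 2.31 ± 0.25 (4.95-fold, adjusted p = 1.01e-06), which was number 66 from the top among all tested genes. Lcat differed by 1.34 ± 0.13 (adjusted p = 2.5e-07) and Abca1 by 1.21 ± 0.09 (adjusted p = 2.84e-08). Among those 3 genes only Abca1 was called with SQ1. With the offset of 50 they also had the largest pravastatin falls of the set, an order that Agilent's processed ratios change, since they put Abcg8 at -1.93. Abcg8 was well above background on only 2 of 8 pravastatin arrays, so its place in either order is uncertain.

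Differences also passed for 5 further members. Mttp differed by 0.82 ± 0.10 (adjusted p = 4.67e-06), Lpcat3 by 0.81 ± 0.07 (adjusted p = 5.13e-08), Abcg8 by 0.41 ± 0.08 (adjusted p = 0.000636) and Pltp by 0.39 ± 0.06 (adjusted p = 1.87e-05). The sizes for these dim probes depend on the background step: over all settings tried, the difference of Abcg8 ran from 0.35 to 2.13 and that of Pltp from 0.37 to 0.63. Nr1h2 differed the other way, by -0.19 ± 0.04 (adjusted p = 0.000717), a call lost with median centring (0.202, in a range of 1.87e-05 to 0.202). For Abcg1 the difference was 0.13 with a 95% interval of -0.04 to 0.31 (adjusted p = 0.185), and without SQ1 replicate 6 it was 0.18 and passed (0.0421, in a range of 0.0421 to 0.406). For Soat2 it was 0.06 with an interval of -0.35 to 0.47 (adjusted p = 0.815), which leaves room for a difference in either direction. Since the doses of the drugs differ, these are differences between treatments as given and not between equal doses.

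The 16 arrays lay on 4 slides, and ratios of 4 members differed between the slides of a drug. SQ1 replicates 1, 2, 5 and 6 were on slide 1 and 3, 4, 7 and 8 on slide 2, while pravastatin replicates with the same numbers were on slides 3 and 4. Each slide holds 1 drug, so drug and slide cannot be told apart in the difference between the drugs, while control RNA of the same array is part of each ratio. Slides 1 and 3 hold one set of control cultures and slides 2 and 4 another, and slide 3 was scanned on another day than the other 3, so that slide, culture set and, for pravastatin, day of scanning cannot be told apart. Of all tested genes, 12.3% differed between the SQ1 slides and 21.8% between the pravastatin slides at an adjusted p under 0.05. Abcg5, Lcat and Soat2 were among them with both drugs, Abcg8 with SQ1.

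Abcg5 had a log2 change of -0.17 ± 0.08 on slide 1 and 0.69 ± 0.08 on slide 2 with SQ1, and of -2.55 ± 0.08 on slide 3 and -1.54 ± 0.08 on slide 4 with pravastatin. The SQ1 slides thus lay on opposite sides of 0 and differed by -0.86 (adjusted p = 0.000862), and the pravastatin slides differed by -1.01 (adjusted p = 7.2e-05). On slide 2 alone the SQ1 change of Abcg5 passed the test (adjusted p = 2.25e-05), as did that of Abcg8, 0.20 ± 0.06 (adjusted p = 0.0216). The log2 intensity of Abcg5 averaged 11.02 ± 0.16 in SQ1-treated cells and 11.19 ± 0.26 in controls on slide 1, and 11.38 ± 0.11 in SQ1-treated cells and 10.69 ± 0.16 in controls on slide 2 (SD, n = 4 each). With pravastatin it averaged 8.69 ± 0.12 against 11.24 ± 0.22 in controls on slide 3, and 9.08 ± 0.08 against 10.62 ± 0.17 in controls on slide 4. Treated levels were therefore higher and control levels lower on slides 2 and 4.

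Lcat had SQ1 changes of -0.41 ± 0.07 on slide 1 (adjusted p = 0.000209) and 0.07 ± 0.07 on slide 2 (adjusted p = 0.452), and pravastatin changes of -1.69 ± 0.07 on slide 3 and -1.32 ± 0.07 on slide 4. Its controls averaged 11.75 ± 0.10 on slide 1 and 10.88 ± 0.31 on slide 2, and 11.72 ± 0.19 on slide 3 and 10.53 ± 0.29 on slide 4. Soat2 had SQ1 changes of -0.70 ± 0.11 on slide 1 and -0.17 ± 0.11 on slide 2, and pravastatin changes of -0.86 ± 0.11 on slide 3 and -0.13 ± 0.11 on slide 4. On slides 2 and 4 alone neither Soat2 change passed (adjusted p = 0.297 and 0.351). Treated Soat2 levels were close on all slides, 11.59 ± 0.16 and 11.48 ± 0.06 on the SQ1 slides and 11.46 ± 0.13 and 11.59 ± 0.29 on the pravastatin slides. The control levels were 12.29 ± 0.18 and 11.65 ± 0.29 on the SQ1 slides and 12.32 ± 0.14 and 11.72 ± 0.35 on the pravastatin slides, so the slide difference of Soat2 lay in the control channel. Changes of Abca1, Abcg1, Pltp, Lpcat3, Mttp and Nr1h2 had the same sign on both slides of a drug wherever they were called. On single slides, however, Nr1h2 did not pass on slide 1 or slide 2 with SQ1 (adjusted p = 0.0914 and 0.177) or on slide 3 with pravastatin (0.0873).

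**Figure D3:**
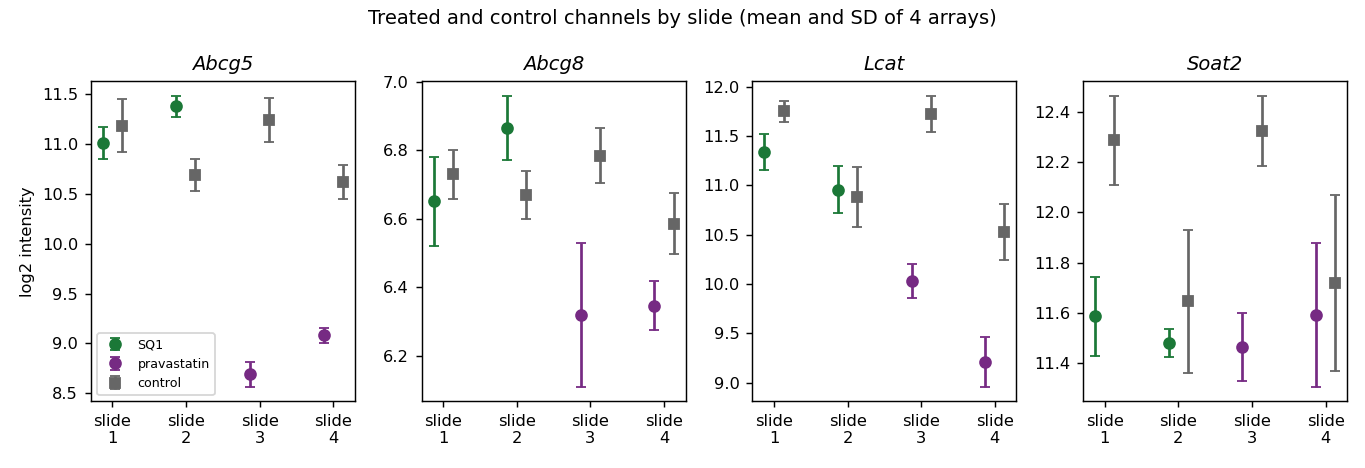
Log2 intensity of Abcg5, Abcg8, Lcat and Soat2 on each of the 4 slides, SQ1-treated (slides 1 and 2) or pravastatin-treated channels as circles left of the control channels of the same arrays as squares; points are means and bars SDs of 4 arrays, and the axes differ between genes. Control levels of Abcg5, Lcat and Soat2 are lower on slides 2 and 4 than on slides 1 and 3, while treated Soat2 stays between 11.46 and 11.59.

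Most hepatocyte markers were lower with pravastatin, as were most members. Of all tested genes, 30.9% were higher and 35.8% lower with pravastatin, and 15.7% higher and 16.5% lower with SQ1. Of 12 hepatocyte markers, 11 were lower with pravastatin and none higher, with a median of -1.27, and albumin was at -1.05 ± 0.08 (adjusted p = 1.3e-08). Their summed signal (log2) was 18.92 to 20.21 in pravastatin-treated cells, against 20.84 to 21.03 in the controls of those arrays, with no overlap. With SQ1, 4 of the 12 were lower and none higher, with a median of -0.12, and albumin was at -0.08 ± 0.08 (adjusted p = 0.514). The summed signal was 20.06 to 20.79 in SQ1-treated cells, against 20.28 to 20.97 in their controls, which overlap. In such bulk RNA, fewer cells of a type and less RNA per cell cannot be told apart, and the part of these shifts in the members' changes was not tested.

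Some markers of other cell types were called as well. The shares over all tested genes were 15.7% higher and 16.5% lower with SQ1, and 30.9% higher and 35.8% lower with pravastatin. Of 11 tested Kupffer cell and leukocyte markers, 8 were lower and none higher with pravastatin (median -0.62), and 5 were lower and 1 higher with SQ1 (median -0.12). Clec4f was at -0.12 ± 0.06 with SQ1 (adjusted p = 0.114) and -0.71 ± 0.06 with pravastatin (adjusted p = 8.79e-09). Their summed signal overlapped between treated and control channels, at 13.66 to 14.59 with SQ1 against 13.83 to 14.74 in controls, and at 13.28 to 14.38 with pravastatin against 13.79 to 14.75 in controls. Of 9 tested endothelial markers, 5 were higher and none lower with SQ1 (median 0.15), and 4 were higher and 4 lower with pravastatin (median -0.03), with summed signals of 13.69 to 13.97 with SQ1 against 13.48 to 13.90 in controls and 13.22 to 13.80 with pravastatin against 13.47 to 13.92 in controls. Of 10 stellate cell markers, 1 was higher and 1 lower with SQ1 and 4 were lower with pravastatin, with summed signals of 16.10 to 16.73 with SQ1 against 16.19 to 16.88 in controls and 16.23 to 16.76 with pravastatin against 16.32 to 16.94 in controls. Of 8 cholangiocyte markers, 1 was higher and 4 lower with SQ1 and 2 were higher and 4 lower with pravastatin, with summed signals of 16.89 to 17.87 with SQ1 against 17.37 to 18.34 in controls and 17.73 to 18.06 with pravastatin against 17.29 to 18.51 in controls. Stab2 was at -0.08 with SQ1 and -0.59 with pravastatin, Col1a1 at -0.01 with SQ1 and 0.20 with pravastatin, and Krt19 at -0.50 with SQ1 and -0.25 with pravastatin. Their part in the members' changes was not tested.

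Most of the other LXR pathway genes were lower with pravastatin. The background over all tested genes was 15.7% higher and 16.5% lower with SQ1, and 30.9% higher and 35.8% lower with pravastatin. Of 20 tested other LXR receptors, partners and targets, 1 was higher and 6 were lower with SQ1, and 3 were higher and 14 lower with pravastatin, with medians of -0.09 with SQ1 and -0.45 with pravastatin. Apoc1, an apolipoprotein that lies in one gene cluster with Apoe, was at -1.05 ± 0.10 with SQ1 and -2.23 ± 0.10 with pravastatin. The retinoid X receptor gene Rxra was at 0.24 ± 0.05 with SQ1 (adjusted p = 0.00119) and -0.18 ± 0.05 with pravastatin (adjusted p = 0.00391), and its other probe was at 0.01 with SQ1 (adjusted p = 0.870). Arl4c, a small GTPase, was higher with pravastatin at 0.26. Nr1h3 (LXR alpha) and Srebf1, which encodes the lipogenic SREBP1c and is a classical LXR target, were chosen for mention after their values were seen. Nr1h3 was at 0.01 ± 0.04 with SQ1 (adjusted p = 0.888) and -0.71 ± 0.04 with pravastatin (adjusted p = 9.08e-11), and Srebf1 at -0.38 ± 0.08 with SQ1 (adjusted p = 0.00129) and -0.75 ± 0.08 with pravastatin (adjusted p = 2.83e-07). With median centring the SQ1 change of Srebf1 was -0.28 and did not pass (adjusted p = 0.120).

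Most genes that make or clear LXR ligands were lower with pravastatin. Among all tested genes, 15.7% were higher and 16.5% lower with SQ1, and 30.9% higher and 35.8% lower with pravastatin. Of 10 oxysterol and desmosterol enzymes, 3 were higher and 2 lower with SQ1 (median -0.04), and 8 were lower and none higher with pravastatin (median -0.34). Dhcr7 and Ebp, enzymes of late cholesterol synthesis, were at 0.86 ± 0.09 and 0.46 ± 0.05 with SQ1, and at -0.06 ± 0.09 and -0.31 ± 0.05 with pravastatin. Ch25h, which makes an oxysterol from cholesterol, was at -0.54 ± 0.06 with SQ1 and -0.25 ± 0.06 with pravastatin, and Hsd3b7 of bile acid synthesis at -0.18 with SQ1 and -0.21 with pravastatin. The oxysterol hydroxylases Cyp7b1 and Cyp39a1 were at -1.07 ± 0.12 and -0.87 ± 0.08 with pravastatin (adjusted p = 6.37e-07 and 1.16e-07), and did not pass with SQ1 (-0.13 and -0.08). As a check on the treatments, 19 of 19 targets of SREBP2, the regulator of cholesterol synthesis, were higher with SQ1 (median 1.05) and 17 of 19 with pravastatin (median 0.48). Idi1, of isoprenoid synthesis, was at 1.41 with SQ1, and Cyp51, of sterol synthesis, at 0.81 with pravastatin.

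Most high-density lipoprotein genes were lower with both drugs. Over all tested genes, 16.5% were lower and 15.7% higher with SQ1, and 35.8% lower and 30.9% higher with pravastatin. Of 10 tested high-density lipoprotein genes, 9 were lower and none higher with SQ1 (median -0.31), and 9 were lower and none higher with pravastatin (median -0.94). Apoa2, a structural protein of the particle, was at -0.73 ± 0.13 with SQ1 and -2.04 ± 0.13 with pravastatin, and Pon1, an esterase carried on it, at -0.71 ± 0.17 with SQ1 and -1.47 ± 0.17 with pravastatin. Apoa1, the acceptor for Abca1, was named after its values were seen and was at -0.21 ± 0.06 with SQ1 (adjusted p = 0.012) and -1.45 ± 0.06 with pravastatin (adjusted p = 5.86e-12). The SQ1 change of Apoa1 did not pass with median centring (-0.07, adjusted p = 0.718) or with slide as a random block (0.104). Of 10 genes of apolipoprotein B particle assembly, 3 were lower and none higher with SQ1 (median -0.04), and 9 were lower with pravastatin (median -0.63). With SQ1 the called falls included the disulfide isomerase Pdia3 (-0.32 ± 0.05) and the cargo receptor Surf4 (-0.17 ± 0.04), and with pravastatin Tm6sf2 (-1.23 ± 0.06) and the vesicle coat GTPase Sar1b (-1.09 ± 0.11).

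Sterol ester enzymes and other transporters gave mixed counts. All tested genes together had 15.7% higher and 16.5% lower with SQ1, and 30.9% higher and 35.8% lower with pravastatin. Of 10 tested sterol ester and lysophospholipid enzymes, 1 was higher and 3 lower with SQ1 (median -0.06), and 1 was higher and 6 lower with pravastatin (median -0.17). Nceh1, a cholesteryl ester hydrolase, was at 0.41 ± 0.04 with SQ1 and -0.14 ± 0.04 with pravastatin, where median centring gave 0.0077 with pravastatin. Mboat1, a lysophospholipid acyltransferase like Lpcat3, was at -0.75 ± 0.13 with SQ1, and its relative Mboat2 at 0.23 ± 0.06 with pravastatin. The carboxylesterase Ces1d was at -0.68 ± 0.20 with SQ1 and -1.54 ± 0.20 with pravastatin, and Ces1f at -2.32 ± 0.35 with pravastatin. Of 16 other ABC transporters, 4 were higher and 4 lower with SQ1 (median -0.04), and 3 were higher and 9 lower with pravastatin (median -0.21). Abca7, a close relative of Abca1, was higher with both, at 0.30 ± 0.04 with SQ1 and 0.38 ± 0.04 with pravastatin. The bile salt export pump Abcb11 was at -0.58 ± 0.15 with SQ1 and -2.85 ± 0.15 with pravastatin, and the phospholipid floppase Abcb4 at -1.50 ± 0.14 with pravastatin. Abca6 was at 0.23 ± 0.08 with SQ1, Abca8b at -0.39 ± 0.10 with SQ1, and the multidrug transporter Abcb1b at 0.96 ± 0.07 with pravastatin.

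Some called genes beside the members rested on 1 slide of a drug, with a slide difference that passed. On slide 2 alone the SQ1 changes of Ces1d (-0.13), Pon1 (-0.30), Abcb11 (-0.20), Abca8b (-0.14), Hsd3b7 (-0.05) and Mug1 (-0.27) did not pass. On slide 1 alone those of Abca6 (0.09) and Krt19 (-0.10) did not. With pravastatin, Ch25h on slide 3 (-0.11), and Hsd3b7 (-0.08) and Surf4 (-0.03) on slide 4 did not pass.

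**Figure D4:**
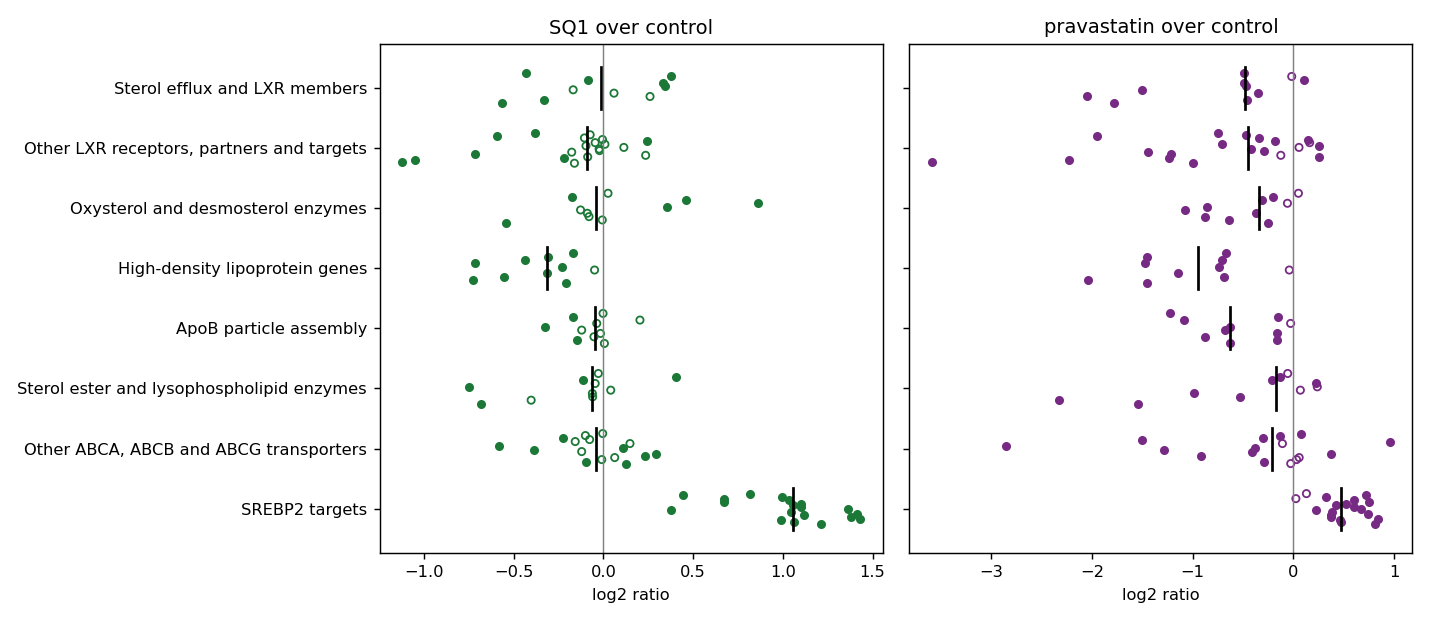
Log2 change of each tested gene of the members and of 7 pathway lists, SQ1 left of pravastatin; filled points passed the test at an adjusted p under 0.05, open points did not, black lines are medians, and the horizontal axes differ between the drugs. The median of the members is -0.01 with SQ1 and -0.48 with pravastatin, and SREBP2 targets lie above 0 with both drugs.

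Genes most like 3 of the members were found by Pearson correlation of the ratios over the 16 arrays, which share controls and span both drugs, so that any gene with a strong difference between the drugs correlates. Abca1 was most like Nav2 (0.979), Pzp (0.979) and Mug1 (0.976). The SQ1 change of Nav2 was -0.14 at the probe used and 0.13 at another of its probes. Abcg5 was most like Adhfe1 (0.996), Acsm3 (0.996) and Abat (0.995). Pltp was most like Optn (0.964), Rab4a (0.961) and Fcgrt (0.958). The same 16 ratios carry the differences between slides, so likeness to Abcg5 includes its slide pattern. The SQ1 changes on slides 1 and 2 were -0.43 and 0.27 for Adhfe1, -0.49 and 0.43 for Acsm3, and -0.60 and 0.16 for Abat.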

How the data were processed

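Gene expression was measured in primary mouse hepatocytes on 16 Agilent 2-colour arrays, SQ1 or pravastatin against untreated control, 8 arrays per drug. Per the file headers, the deposited scanner files hold median spot and background intensity for both channels, which the authors left unnormalized, together with processed signal intensities and a log10 ratio of red over green from Agilent Feature Extraction 11.0.1.1. The deposited series table holds log2 values. Set against the scanner files, it tracked their log ratio once signs were turned so that treated cells were on top (correlation 0.742 to 0.999 per array, slopes near 1), its column medians ran from -0.07 to 0.14, and its centring stays unknown.

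Intensities were processed in R 4.3.3 with limma 3.58.1: normexp with an offset of 50, loess within each array, and averaging of the spots of a probe. The plan named the mean spot signal, and the median was used because the files hold that. Probes were named through RefSeq accessions (27234 of 39429 named, 12195 not). Testing required a signal well above background in the treated cells of 4 or more arrays of either drug, or in 8 or more control channels, and 7 or more usable ratios per drug. A gene was represented by its brightest tested probe. The fit had a coefficient for each drug, signed by dye orientation, and a constant for the dye (13 residual degrees of freedom). Levels came from each channel after loess and Aquantile. Across genes the median SE was 0.04 for a drug and 0.06 for SQ1 minus pravastatin; precision is limited by how many arrays there are. The code was run on simulated data over 15053 genes, with 100 genes changed per drug and size. For SQ1 it recovered 94% of changes of 0.5 on the log2 scale and 99% of changes of 1, and for pravastatin 96% and 99%. False calls numbered 13 for SQ1 and 14 for pravastatin. The simulated noise was independent between arrays, whereas in the data it correlated at 0.27 within slides and 0.47 within replicate numbers. These shares are therefore a check of the code and do not give the recovery in these data.

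The members and lists were chosen with earlier results of these data known. Genes named beside the members are, of each list and drug, the up to 2 called genes with the largest rise and the up to 2 with the largest fall, the defining cell type markers, and the 3 genes most like Abca1, Abcg5 and Pltp; some genes that this rule names are not reported here. Same-numbered arrays of the 2 drugs share a control culture, per the control numbers in the files, and their deviations from the drug means correlated at 0.22 to 0.72 in all 8 pairs, although for 5 of 8 SQ1 arrays a pravastatin array of another number correlated better. Alternatives covered background correction, normalization, filters, probe choice, dye term, array weights, slide, day of scanning, replicate block and left-out arrays.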

Additional observations from a re-analysis of the deposited data

Results flagged for a closer look

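In a group of 8 arrays, SQ1 replicate 1 stood apart from the other 7 for Pltp: its log2 ratio was 0.0753, where the others ran from 0.32 to 0.50. Its gap to the next array was 0.577 of the whole range, above the critical value of 0.526, and chance flags about 1 in 20 groups, with 20 groups tested here.

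Changes of 4 members differed between the slides of a drug, by limma's test of the difference itself adjusted over all genes. By the same test, 12.3% of all tested genes differed between the SQ1 slides and 21.8% between the pravastatin slides. For Abcg5, SQ1 slide 1 minus slide 2 was -0.86 (adjusted p = 0.000862), and pravastatin slide 3 minus slide 4 was -1.01 (adjusted p = 7.2e-05). For Lcat the differences were -0.48 with SQ1 (adjusted p = 0.0052) and -0.38 with pravastatin (adjusted p = 0.00985). Soat2 differed by -0.53 with SQ1 (adjusted p = 0.0381) and by -0.73 with pravastatin (adjusted p = 0.00402), and Abcg8 by -0.28 with SQ1 (adjusted p = 0.0433). Slides of both drugs that hold the same replicate numbers also hold the same control cultures, so these are not independent repeats.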

How the results depend on the processing

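Members called ran over 5 to 7 with SQ1, 8 to 9 with pravastatin and 7 to 9 for SQ1 minus pravastatin over all alternatives, and SQ1 minus pravastatin kept its sign in every setting for all members but Soat2. With the replicate block, 4725 genes and 6 members were called with SQ1, 9869 genes and 9 members with pravastatin, and 9620 genes and 8 members for the difference; of the members' calls only Nr1h2 with SQ1 was lost. Leaving out 1 array at a time gave 4051 to 4495 genes with SQ1, 9612 to 10023 with pravastatin and 7480 to 8273 for the difference, against 4860, 10041 and 7996 with all arrays. Genes called with SQ1 numbered 2071 with median centring, 2543 with slide and 2239 with day of scanning as a random block, and 3121 at an adjusted p of 0.01. Median centring gave 3697 for the difference, and with it 1473 of the SQ1 calls were higher and 598 lower, against 2369 and 2491 with loess; it moved the median of all genes to 0.07 with SQ1 and 0.04 with pravastatin. Testing each probe by itself gave 7496, 16476 and 12582 calls, from more features. Among values called in either setting, signs turned for Nr1h2 with SQ1 (0.034), Nceh1 (0.0077) and Surf4 (0.039) with pravastatin under median centring, for Nav2 with SQ1 at another of its probes (0.13), and on SQ1 slide 2 alone for Acsm3 (0.43), Adhfe1 (0.27) and Cyp7b1 (0.21). Some uncalled values turned too, among the members with SQ1 Lcat on slide 2 (0.07) and Abcg5 (-0.17) and Abcg8 (-0.08) on slide 1. The cause was not tested. Dim probes limit Abcg8 and Pltp, whose ratios depend on the background step.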
